A study of Homo sapiens with 6 samples.

Results

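The genes described here encode the proteasome: its catalytic core, its regulatory particles, its immune subunits, and the factors that assemble, activate or inhibit it. Members were taken by symbol, as every gene whose symbol starts with PSMA to PSMG followed by a digit, which gave 48 of the 17452 genes in the files. Among them, PSMC3IP encodes a partner of the meiotic recombinase machinery and is no proteasome subunit, and PSMB11, the subunit of the thymus proteasome, was listed at 0 FPKM in all 6 libraries. The other 46 comprise 7 alpha and 7 constitutive beta subunits of the 20S core, 3 immune beta subunits, 6 ATPases and 11 non-ATPase subunits of the 19S particle, 3 chaperones of its base, 4 activators, 1 inhibitor and 4 chaperones of the core.

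RNA sequencing compared 3 libraries of MDA-MB-231 cells given a control siRNA (siControl) with 3 given siRNA against PHF20L1 (siPHF20L1). MDA-MB-231 is an established human line from a triple-negative breast tumour, PHF20L1 encodes a nuclear reader of methylated lysine, and an siRNA is a short RNA duplex that leads to cleavage of transcripts it matches. All cells were grown in L-15 medium with serum. Either of a pair of Lipofectamine reagents was used, without a statement of which served which library, and the labels give neither the siRNA sequences nor the hour of harvest. No label states that replicate libraries stem from separate cultures, so p-values measure the spread between these samples only, which may be technical.

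The proteasome degrades proteins tagged with ubiquitin. Stacked alpha and beta rings form a barrel, the 20S core, whose catalytic beta subunits PSMB5, PSMB6 and PSMB7 cleave after hydrophobic, acidic and basic residues respectively, and the 19S cap binds ubiquitin, unfolds substrates with its ring of ATPases and feeds them into the barrel. Interferon signalling is known to induce PSMB8, PSMB9 and PSMB10, which take the places of PSMB5, PSMB6 and PSMB7 in newly built cores and change the peptides made for display on HLA class I. NFE2L1 and NFE2L2 are known activators of proteasome genes, the former above all when proteasome activity falls short.

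Promoter windows are shown for the 3 immune subunits and for PSMD5, the other member past 1.5-fold, because the known inducers of these genes bind short sites near the start. RefSeq (GRCh38.p14) windows run from 250 bases before to 50 bases after a gene's start, and 42 of the 48 members matched, with 52 windows. Capitals mark matches, on either strand, to CCAAT (the CCAAT box), TGACNNNGC (the core of the antioxidant response element), GAAANNGAA (the core of the interferon-stimulated response element) or TTCNNNGAA (the core of the gamma-activated site). The sequences are written along the strand of the gene. They are the downstream start of PSMB8 (chr6:32843998-32844297, minus strand), PSMB9 (chr6:32853942-32854241, plus strand), PSMB10 (chr16:67936801-67937100, minus strand) and PSMD5 (chr9:120842873-120843172, minus strand).
PSMB8: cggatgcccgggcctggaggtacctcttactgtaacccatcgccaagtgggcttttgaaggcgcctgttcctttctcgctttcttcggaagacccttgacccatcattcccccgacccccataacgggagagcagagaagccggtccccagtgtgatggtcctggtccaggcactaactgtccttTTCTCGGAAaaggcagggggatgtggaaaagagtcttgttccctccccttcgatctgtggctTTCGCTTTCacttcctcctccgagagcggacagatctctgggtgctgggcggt
PSMB9: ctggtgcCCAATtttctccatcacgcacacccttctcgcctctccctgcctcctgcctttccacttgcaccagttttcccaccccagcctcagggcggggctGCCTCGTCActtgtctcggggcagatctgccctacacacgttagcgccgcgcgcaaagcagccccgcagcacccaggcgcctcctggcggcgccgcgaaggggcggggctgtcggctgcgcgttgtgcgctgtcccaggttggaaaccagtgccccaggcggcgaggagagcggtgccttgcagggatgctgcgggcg
PSMB10: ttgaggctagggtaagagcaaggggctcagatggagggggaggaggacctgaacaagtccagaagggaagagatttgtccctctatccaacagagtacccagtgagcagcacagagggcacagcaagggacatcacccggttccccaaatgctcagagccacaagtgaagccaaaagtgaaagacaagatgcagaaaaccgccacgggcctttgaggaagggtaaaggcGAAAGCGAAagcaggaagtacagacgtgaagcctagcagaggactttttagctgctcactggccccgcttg
PSMD5: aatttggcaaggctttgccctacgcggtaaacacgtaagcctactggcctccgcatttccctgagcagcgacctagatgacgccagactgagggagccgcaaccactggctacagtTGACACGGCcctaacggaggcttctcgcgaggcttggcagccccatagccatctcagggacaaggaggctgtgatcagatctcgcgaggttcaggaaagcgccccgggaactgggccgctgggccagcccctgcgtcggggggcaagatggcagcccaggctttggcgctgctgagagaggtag

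The PSMB8 window holds a gamma-activated core 65 bases before the start. It also holds an interferon-stimulated core, read on the opposite strand, that begins 3 bases before the start and runs past it. The window of PSMB10 holds an interferon-stimulated core on the coding strand 21 bases before the start. Both cores are the same 9 letters, GAAAGCGAA in PSMB10 and its reverse complement TTCGCTTTC in PSMB8. The PSMB9 window holds a CCAAT box at 243 bases and an antioxidant core, on the opposite strand, at 148 bases before the start, and that of PSMD5 an antioxidant core at 134 bases. A second PSMB8 window, upstream, held none of the 4 motifs.

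Over all 52 member windows, CCAAT was present in 42.3%, TGACNNNGC in 28.8%, GAAANNGAA in 15.4% and TTCNNNGAA in 13.5%. Over all 35116 windows of the same length the shares were 34.6%, 13.3%, 8.1% and 7.7%. The letters GAAAGCGAA, picked after the matches had been seen, stood in 9.6% of the member windows and in 0.27% of all windows. The 5 members that carry them are PSMB8, PSMB10, PSME1, PSME2 and PSMG4. TGACNNNGC was found in 1 of 6 members higher after the knockdown, in 6 of 18 lower and in 8 of the 17 members with a window that did not pass the threshold, and GAAANNGAA in 1, 3 and 4 of these. A match is a run of letters and not a measured binding site.

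Values are FPKM as deposited, that is fragments per length of transcript and per depth of library, so that levels of different genes can be set side by side. Steps among the lowest values put the depth roughly at 16900000 to 17250000 fragments per library (53.0% to 59.8% of the low values used lay within 0.1 of a whole fragment), so that 1 fragment in a 1 kb transcript was worth about 0.058 to 0.0592 FPKM. PHF20L1 was at 15.75, 12.48 and 12.73 FPKM under the control siRNA and 2.67, 2.31 and 2.74 FPKM after the knockdown, as their labels say. Of the markers of the line, VIM and CD44 were high (means 1624 and 141 FPKM in siControl, 1015 and 140 FPKM in siPHF20L1), ESR1 was listed at 0 in all 6 libraries, and PGR and CDH1 stayed at or below 0.45 FPKM. EPCAM was at 2.20 ± 0.161 FPKM under the control siRNA and 4.31 ± 0.796 FPKM after the knockdown (SD, n = 3), and ERBB2, low by the description of the line, at 25.9 ± 0.0755 and 30.8 ± 1.08 FPKM. In each group the libraries numbered 2 and 3 were far closer to each other than to the library numbered 1.

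A total of 11560 genes was tested with limma on log2(FPKM + 1), and 47 members among them. The text calls a gene higher or lower at an adjusted p under 0.05 (limma, Benjamini-Hochberg over all genes tested). Of the 47 members, 6 were higher and 18 lower in siPHF20L1 libraries and 23 did not pass. The 24 members called are 51.1%, against 58.6% of all genes tested. By direction, 12.8% of the members were higher against 34.0% of all genes, and 38.3% were lower against 24.7%. The groups did not overlap in 26 members, or 55.3%, against 63.7% of all genes.

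Most differences in the members were small. The median log2 difference was -0.05 over the members and 0.05 over all genes tested, and the median size without sign was 0.21 and 0.28. Past the threshold and by at least 1.5-fold on the log2 scale were 3 members, or 6.4%, against 19.6% of all genes. These were PSMB8, PSMB10 and PSMD5. With a block on the replicate number (limma), 10 members were higher and 22 lower, 68.1% against 76.1% of all genes. With the libraries numbered 2 and 3 of each group averaged, 4 were higher and 9 lower. Of all genes tested, too, fewer were higher and fewer lower with that averaging. PSMC1, PSMD7 and PSMD11 lost their calls in that setting alone (limma, adjusted p = 0.0722, 0.0652 and 0.0571). PSMB2, PSMB3, PSMB5, PSMC2, PSMC6, PSMD12 and PSMD13, whose calls were also lost in other settings, had adjusted p of 0.268, 0.0874, 0.09, 0.0877, 0.0758, 0.0932 and 0.129 there (limma).

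**Figure D1:**
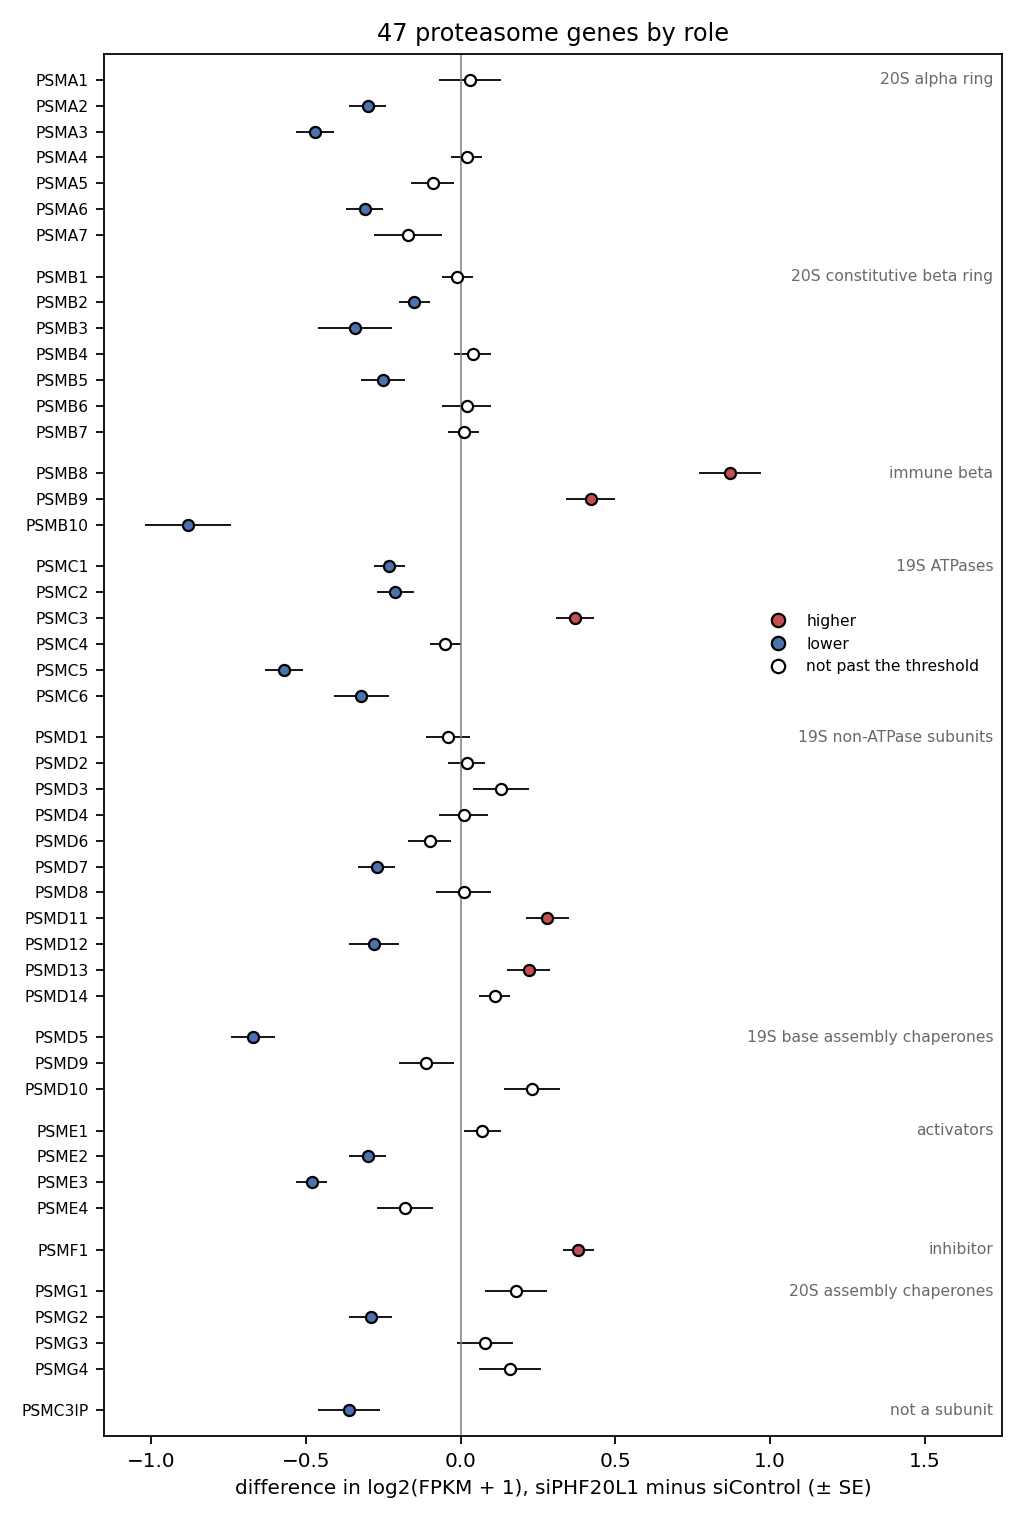
Difference in log2(FPKM + 1) between siPHF20L1 and siControl libraries (x axis, with its SE) for the 47 members tested, grouped by role from the 20S alpha ring at the top to PSMC3IP at the bottom. Red points were higher and blue points lower at an adjusted p under 0.05 (limma, n = 3 libraries per group), and open points did not pass. PSMB8 and PSMB10 stand at the opposite ends, at 0.87 and -0.88. Lower were 3 of 7 alpha and 3 of 7 constitutive beta subunits (42.9% each) and 4 of 6 ATPases (66.7%). So were 2 of 11 non-ATPase subunits (18.2%), against 24.7% of all genes tested.

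The 3 immune subunits moved in different directions. PSMB8, the immune counterpart of PSMB5, was at 25.33, 28.36 and 31.91 FPKM under the control siRNA and 46.09, 56.58 and 56.68 FPKM after the knockdown. Every siPHF20L1 library thus lay above every siControl library. The mean rose 1.86-fold, from 28.5 ± 3.29 to 53.1 ± 6.09 FPKM (SD, n = 3), with a log2 difference of 0.87 (SE 0.10, limma, adjusted p = 0.000151). It was the largest rise among the members.

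PSMB9, the immune counterpart of PSMB6, was at 19.41, 21.39 and 22.54 FPKM under the control siRNA and 27.13, 31.34 and 27.30 FPKM after the knockdown. The groups did not overlap. The means were 21.1 ± 1.58 and 28.6 ± 2.38 FPKM (SD, n = 3), for a log2 difference of 0.42 (SE 0.08, limma, adjusted p = 0.00197). PSMB8 and PSMB9 lie near each other in the class II region of the HLA locus, with the start of TAP1 between theirs. The annotation used here (GENCODE release 29) has exons of each overlapping the other on the opposite strand, with PSMB8-AS1 overlapping PSMB8 as well. Whether the authors' counting used strand is not given in the sources used here, so the values of this pair are uncertain to that extent.

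PSMB10, the immune counterpart of PSMB7, went the other way. It was at 27.52, 37.07 and 33.09 FPKM under the control siRNA and 14.95, 21.23 and 15.79 FPKM after the knockdown. All siPHF20L1 libraries were lower than all siControl libraries. The mean fell from 32.6 ± 4.80 to 17.3 ± 3.41 FPKM (SD, n = 3), with a log2 difference of -0.88 (SE 0.14, limma, adjusted p = 0.00081), the largest fall among the members. PSMB8, PSMB9 and PSMB10 passed in these directions under all 16 alternatives of scaling, filter, block and libraries. Their log2 differences were 0.84, 0.46 and -0.84 within replicate number 1 and 0.89, 0.40 and -0.90 within the numbers 2 and 3.

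Blood cells hold these 3 transcripts at high level, so their markers were read beside them. CD3E was listed at 0 in 5 of 6 libraries and at 0.04 FPKM in siPHF20L1 replicate 1. PTPRC lay between 0.87 and 1.43 FPKM under the control siRNA and between 0.97 and 1.39 FPKM after the knockdown, and CD14 between 0.70 and 1.24 and between 0.50 and 0.74 FPKM. The summed level of the 3 markers was 1.95 to 2.17 FPKM in siControl and 1.52 to 2.17 FPKM in siPHF20L1 libraries. In bulk libraries, fewer cells with a transcript and less of it per cell cannot be told apart.

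The constitutive counterparts moved less. PSMB5, the chymotrypsin-like subunit, was at 64.88, 71.05 and 75.15 FPKM under the control siRNA and 54.78, 63.15 and 58.60 FPKM after the knockdown. The groups did not overlap, for a log2 difference of -0.25 (SE 0.07, limma, adjusted p = 0.0178). This call was lost without siControl replicate 2 (limma, adjusted p = 0.0585), siControl replicate 3 (0.069) or siPHF20L1 replicate 3 (0.0555). PSMB6, the caspase-like subunit, was at 140.02, 161.28 and 159.94 FPKM and at 142.24, 163.48 and 163.21 FPKM, and PSMB7, the trypsin-like subunit, at 190.40, 185.27 and 188.48 FPKM and at 196.95, 186.16 and 186.86 FPKM. Their groups overlapped, with log2 differences of 0.02 and 0.01 (limma, adjusted p = 0.816 and 0.829).

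**Figure D2:**
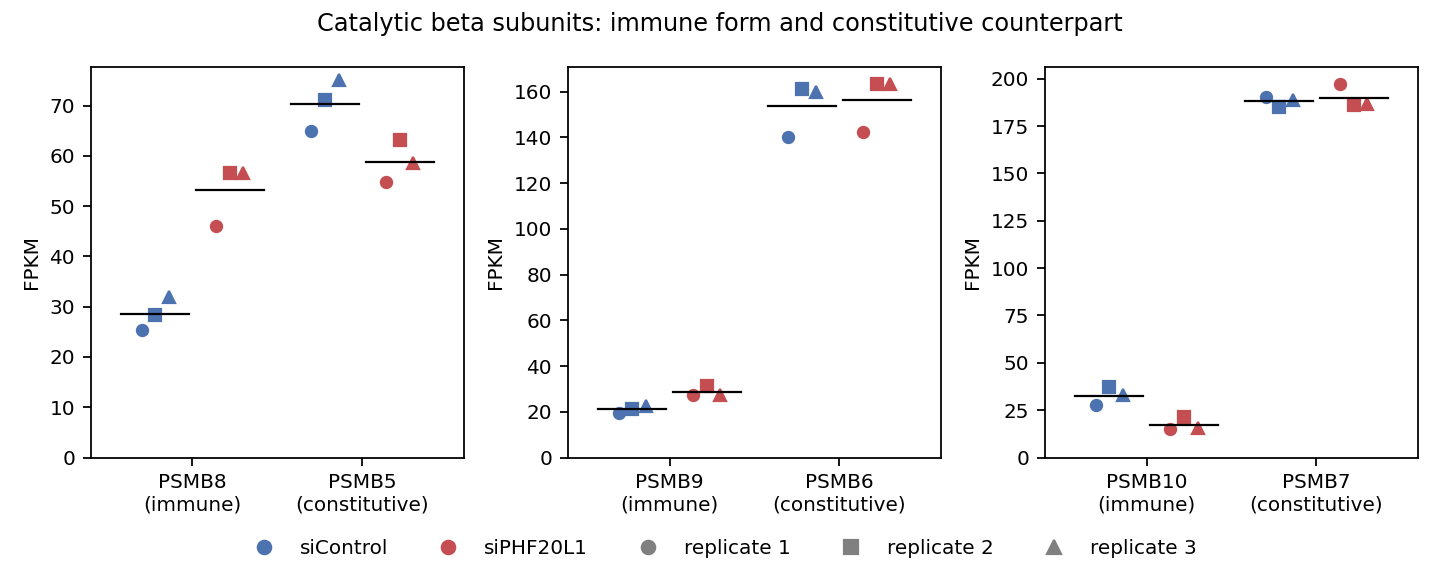
FPKM (y axis, from 0) of each immune catalytic subunit and of its constitutive counterpart in every library, with siControl in blue, siPHF20L1 in red, 1 symbol per replicate number and a line at the mean of 3 libraries. PSMB8 and PSMB9 lie higher and PSMB10 lower in all 3 siPHF20L1 libraries, while PSMB6 and PSMB7 overlap between the groups.

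The share of the immune transcript at each catalytic position followed from these levels. PSMB8 made up 28.1%, 28.5% and 29.8% of the summed FPKM of PSMB8 and PSMB5 under the control siRNA and 45.7%, 47.3% and 49.2% after the knockdown. The mean share was 28.8% ± 0.896 and 47.4% ± 1.74 (SD, n = 3), so that PSMB8 came near the level of PSMB5 after the knockdown. PSMB9 made up 12.2%, 11.7% and 12.4% of PSMB9 and PSMB6 under the control siRNA and 16.0%, 16.1% and 14.3% after the knockdown. PSMB10 made up 12.6%, 16.7% and 14.9% of PSMB10 and PSMB7 under the control siRNA and 7.06%, 10.2% and 7.79% after the knockdown.

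None of the 3 shares overlapped between the groups. The log2 of the immune to constitutive ratio differed by 1.15 for PSMB8 to PSMB5, by 0.41 for PSMB9 to PSMB6 and by -0.93 for PSMB10 to PSMB7. Each gave p = 0.1 in an exact permutation test over libraries (two-sided), the smallest value that 3 against 3 allows, and 0.1 after Benjamini-Hochberg adjustment over the 3 ratios. The differences were 1.11, 0.46 and -0.93 within replicate number 1 and 1.18, 0.39 and -0.93 within the numbers 2 and 3.

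**Figure D3:**
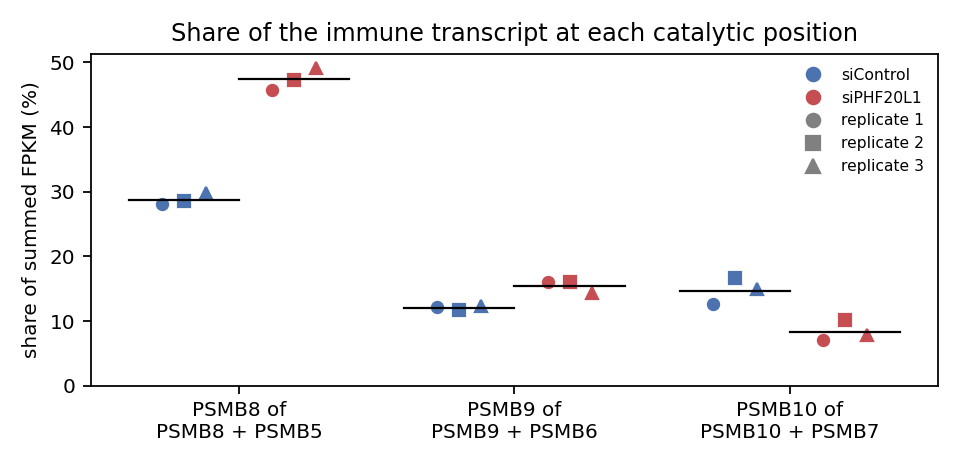
Share of the immune transcript in the summed FPKM of the pair (y axis, in percent, from 0) at the 3 catalytic positions, by library, with siControl in blue, siPHF20L1 in red and a line at the mean. The PSMB8 share went from 28.8% to 47.4% and the PSMB9 share from 12.1% to 15.5%, while the PSMB10 share went from 14.7% to 8.36%.

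Of the 7 alpha subunits, which form the outer rings and the gate of the barrel, none was higher, 3 were lower and 4 did not pass. The share called was 42.9% against 58.6% of all genes tested, and the share lower 42.9% against 24.7%. PSMA3 had the lowest log2 difference of the ring. It was at 94.97, 98.67 and 98.22 FPKM under the control siRNA and 73.39, 70.10 and 66.52 FPKM after the knockdown. The groups were well apart, and the mean fell from 97.3 ± 2.02 to 70.0 ± 3.44 FPKM (SD, n = 3; log2 difference -0.47, SE 0.06, limma, adjusted p = 0.000146). PSMA2 and PSMA6 were lower, with log2 differences of -0.30 and -0.31 (limma, adjusted p = 0.00177 and 0.00236), and their groups did not overlap either.

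PSMA1 had the highest difference of the ring, at 88.51, 74.08 and 70.39 FPKM under the control siRNA and 88.22, 72.75 and 75.95 FPKM after the knockdown. The groups overlapped, and the log2 difference of 0.03 did not pass (limma, adjusted p = 0.841). PSMA4 and PSMA5 did not pass, with log2 differences of 0.02 and -0.09. PSMA7, the most abundant alpha transcript with 217 ± 26.9 FPKM in siControl (SD, n = 3), had a difference of -0.17 that did not pass (limma, adjusted p = 0.224), but passed with a block on the replicate number (0.000705) and without siControl replicate 1 (0.0349). The summed FPKM of the 7 genes was 576.6, 615.4 and 606.1 under the control siRNA and 511.2, 539.1 and 519.8 after the knockdown, lower in all 3 of the latter.

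Of the 7 constitutive beta subunits, none was higher, 3 were lower and 4 did not pass. The share called was 42.9% against 58.6% of all genes tested, and the share lower 42.9% against 24.7%. Their median log2 difference was -0.01 and lay between -0.09 and 0.02 over the other scalings. PSMB3, a structural subunit, had the lowest difference, at 152.07, 174.97 and 193.77 FPKM under the control siRNA and 116.69, 154.79 and 140.80 FPKM after the knockdown. Its groups overlapped at 1 library of each, and the difference of -0.34 (SE 0.12, limma, adjusted p = 0.0352) was lost with no filter on level (0.0722), without siControl replicate 2 (0.0903) or 3 (0.117) and without siPHF20L1 replicate 1 (0.0764) or 3 (0.0676). PSMB4, also structural, had the highest, at 185.13, 169.64 and 184.67 FPKM under the control siRNA and 193.39, 178.53 and 183.56 FPKM after the knockdown. These groups overlapped, and the difference of 0.04 did not pass (limma, adjusted p = 0.568).

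PSMB2 was lower, with a log2 difference of -0.15 without overlap (limma, adjusted p = 0.0445), a call lost with equal FPKM sums (0.0543), without the intensity trend (0.0672) and without any 1 library other than siControl replicate 1 (0.0816 to 0.148). PSMB1, at a mean of 131 FPKM in both groups, had a difference of -0.01. Over the whole constitutive core of 14 subunits, 6 were lower, none was higher and 8 did not pass, that is 42.9% lower against 24.7% of all genes. The summed FPKM of the beta ring was 903.6, 939.9 and 978.5 under the control siRNA and 871.6, 920.4 and 901.8 after the knockdown, with overlap.

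Of the 6 ATPases, which unfold substrates at the mouth of the core, 1 was higher, 4 were lower and 1 did not pass. The share called was 83.3% against 58.6% of all genes tested, and the share lower 66.7% against 24.7%. PSMC5 fell most. It was at 129.83, 126.49 and 120.83 FPKM under the control siRNA and 87.97, 82.38 and 82.20 FPKM after the knockdown. The groups were far apart, and the mean went from 126 ± 4.55 to 84.2 ± 3.28 FPKM (SD, n = 3; log2 difference -0.57, SE 0.06, limma, adjusted p = 4.71e-05). PSMC3 was the single ATPase to rise, from 66.58, 71.18 and 73.77 FPKM to 85.80, 95.44 and 93.92 FPKM. All its siPHF20L1 libraries lay above all siControl libraries (log2 difference 0.37, SE 0.06, limma, adjusted p = 0.00114).

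PSMC1, PSMC2 and PSMC6 were lower, with log2 differences of -0.23, -0.21 and -0.32 (limma, adjusted p = 0.00477, 0.0159 and 0.0121), each without overlap. The call of PSMC2 was lost without siControl replicate 2 (limma, adjusted p = 0.0633) and that of PSMC6 without siPHF20L1 replicate 3 (0.0504). PSMC4 did not overlap between the groups but had a log2 difference of only -0.05 and did not pass (limma, adjusted p = 0.449). PSMC1 has 13 pseudogenes named for it in the annotation, more than any other member, so reads may have been shared with copies. The same holds for others of the 10 members with such pseudogenes (30 in all). Among these are PSMA6 (4), PSMA2 (3), PSME2 (2), PSMB3 (1) and PSMD7 (1), which were lower. PSMD10 (3), PSMB7 (1), PSMD4 (1) and PSMD8 (1), which did not pass, have them too. The summed FPKM of the ATPases was 457.4, 465.0 and 451.1 under the control siRNA and 406.2, 407.7 and 405.9 after the knockdown, so that the siPHF20L1 libraries were alike and all lower.

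Among the 11 non-ATPase subunits of the 19S particle, 2 were higher, 2 were lower and 7 did not pass. The share called was 36.4%, against 58.6% of all genes tested. Their median log2 difference was 0.01 and lay between -0.07 and 0.05 over the other scalings. PSMD11, a scaffold subunit of the lid, had the highest difference. It was at 50.80, 46.29 and 46.73 FPKM under the control siRNA and 64.24, 55.87 and 55.67 FPKM after the knockdown. The groups did not overlap (log2 difference 0.28, SE 0.07, limma, adjusted p = 0.00918). PSMD12, another scaffold subunit of the lid, had the lowest, at 31.05, 28.44 and 26.48 FPKM under the control siRNA and 25.96, 21.95 and 22.50 FPKM after the knockdown. Its groups came close without overlap, and the difference of -0.28 (SE 0.08, limma, adjusted p = 0.0193) was lost without siControl replicate 2 (0.0532) or siPHF20L1 replicate 2 (0.0724) or 3 (0.0728).

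PSMD13, also of the lid, was higher, with a log2 difference of 0.22 (limma, adjusted p = 0.0187), a call lost with median-ratio scaling (0.13) and without siPHF20L1 replicate 2 (0.0744) or 3 (0.0806). PSMD7, which pairs with the deubiquitinase of the lid, was lower, with a log2 difference of -0.27 (limma, adjusted p = 0.00466). That deubiquitinase, PSMD14, was at 46.22 to 48.14 FPKM under the control siRNA and 49.50 to 52.39 FPKM after the knockdown without overlap, and its difference of 0.11 did not pass (limma, adjusted p = 0.0918) but did with the replicate block (0.0129). PSMD2, a large base subunit and the most abundant member with 302 ± 7.19 FPKM in siControl (SD, n = 3), had a log2 difference of 0.02, and passed only with quantile normalization (limma, adjusted p = 0.042). The ubiquitin receptor PSMD4 and the subunits PSMD1 and PSMD8 had log2 differences of 0.01, -0.04 and 0.01 and did not pass.

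PSMD3 and PSMD6 did not pass, with 0.13 and -0.10 (limma, adjusted p = 0.242 and 0.22), but did with the replicate block (0.00931 and 0.0303), PSMD6 also with median-ratio scaling (0.0343) and PSMD3 also without siPHF20L1 replicate 1 (0.0183). Over all 17 subunits of the 19S particle, 3 were higher, 6 were lower and 8 did not pass. The share called was 52.9%, against 58.6% of all genes tested. By direction, 17.6% were higher against 34.0%, and 35.3% lower against 24.7%. The summed FPKM of the non-ATPase subunits was 919.4, 974.6 and 964.1 under the control siRNA and 931.3, 1003.3 and 991.6 after the knockdown, with overlap.

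PSMD5, PSMD9 and PSMD10 assist the assembly of the ATPase base and leave the finished particle. PSMD5, which binds the ATPase PSMC2 and can hold the particle apart, had the second largest fall among the members. It was at 42.41, 38.40 and 36.41 FPKM under the control siRNA and 25.35, 23.42 and 23.86 FPKM after the knockdown. The groups were far apart, and the mean fell from 39.1 ± 3.06 to 24.2 ± 1.01 FPKM (SD, n = 3; log2 difference -0.67, SE 0.07, limma, adjusted p = 7.05e-05).

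PSMD10, also known as gankyrin, had the highest difference of these 3 chaperones, at 12.09, 12.09 and 10.39 FPKM under the control siRNA and 15.32, 12.66 and 13.11 FPKM after the knockdown. The groups did not overlap, but the log2 difference of 0.23 did not pass (SE 0.09, limma, adjusted p = 0.0565). Adding the replicate block made it pass (0.00381), as did leaving out siControl replicate 1 (0.0477) or siPHF20L1 replicate 2 (just under 0.05). PSMD9 had a log2 difference of -0.11, which passed with the replicate block (limma, adjusted p = 0.305 without and 0.0202 with it).

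The activators cap the core in place of the 19S particle. PSME3, the nuclear activator PA28 gamma, had the lowest difference, at 100.98, 97.22 and 97.49 FPKM under the control siRNA and 73.80, 68.42 and 68.60 FPKM after the knockdown. The groups were far apart (log2 difference -0.48, SE 0.05, limma, adjusted p = 0.000106). PSME1 and PSME2 encode the interferon-inducible pair PA28 alpha and PA28 beta, and the difference between them was not tested. PSME2 was at 85.39, 86.52 and 90.31 FPKM under the control siRNA and 71.84, 74.39 and 66.57 FPKM after the knockdown and was lower without overlap (log2 difference -0.30, SE 0.06, limma, adjusted p = 0.00254).

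PSME1 was at 64.65, 66.44 and 70.10 FPKM under the control siRNA and 73.13, 71.74 and 66.27 FPKM after the knockdown. Its groups overlapped and the difference of 0.07 did not pass (limma, adjusted p = 0.357). PSME4, which encodes the nuclear activator PA200, had a log2 difference of -0.18 (limma, adjusted p = 0.105) and passed with the replicate block (0.00125), with median-ratio scaling (0.0234), with quantile normalization (0.0465) and without siPHF20L1 replicate 1 (0.0424). The summed FPKM of the 4 activators was 280.1, 274.0 and 282.5 under the control siRNA and 243.2, 235.7 and 223.6 after the knockdown, lower in all of the latter.

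PSMF1 encodes PI31, named for its inhibition of the isolated core. It was at 20.64, 20.69 and 21.42 FPKM under the control siRNA and 27.13, 27.53 and 27.82 FPKM after the knockdown. The spread within a group was small beside the gap between them, for a log2 difference of 0.38 (SE 0.05, limma, adjusted p = 0.00036). PSMF1 was higher under all 16 alternatives.

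PSMG1 to PSMG4 encode the chaperones that pair up to build the alpha ring. Of these 4, none was higher, 1 was lower and 3 did not pass. The share called was 25.0% against 58.6% of all genes tested, and the share lower 25.0% against 24.7%. PSMG2 was at 39.09, 35.62 and 35.41 FPKM under the control siRNA and 30.76, 30.57 and 27.99 FPKM after the knockdown. The groups did not overlap (log2 difference -0.29, SE 0.07, limma, adjusted p = 0.00457). Its partner in the same heterodimer, PSMG1, was at 36.23, 32.62 and 31.36 FPKM under the control siRNA and 44.42, 35.47 and 34.52 FPKM after the knockdown. These groups overlapped, and the difference of 0.18 did not pass (limma, adjusted p = 0.155) but did with the replicate block (0.00234).

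PSMG3 and PSMG4, the other such pair, had log2 differences of 0.08 and 0.16 and did not pass, except for PSMG4 without siControl replicate 2 (limma, adjusted p = 0.0424). The summed FPKM of the 4 chaperones overlapped between the groups (116.9 ± 3.46 in siControl and 118.6 ± 3.12 in siPHF20L1, SD, n = 3). PSMC3IP, the member by symbol only, was lower, with a log2 difference of -0.36 (limma, adjusted p = 0.0152), a call lost without siControl replicate 2 (0.0598) or siPHF20L1 replicate 2 (0.0536) or 3 (0.0587), and with the libraries numbered 2 and 3 averaged (0.0569).

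**Figure D4:**
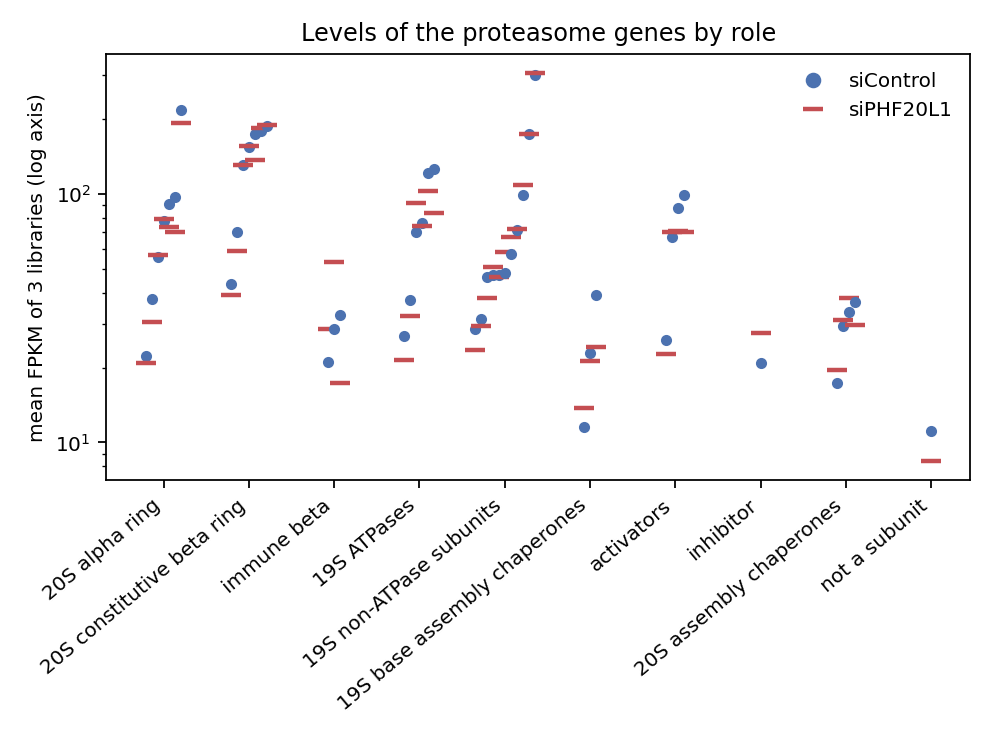
Mean FPKM of 3 libraries (y axis, log scale) for the 47 members tested, in columns by role, with a blue dot for siControl and a red bar for siPHF20L1. PSMD2 (302 FPKM in siControl) and PSMA7 (217) lie highest, the immune subunits between 21.1 and 32.6 FPKM in siControl, and the base chaperones reach down to PSMD10 at 11.5 FPKM.

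Of the 8 role groups whose FPKM were summed, 5 did not overlap between siControl and siPHF20L1 libraries. Among single genes, the groups did not overlap in 63.7% of all genes tested. The sums of the alpha ring, the ATPases, the base chaperones and the activators were lower, with log2 differences of -0.20, -0.17, -0.31 and -0.25, and that of the 3 immune subunits was higher by 0.27. Each of these 5 gave p = 0.1 in an exact permutation test over libraries (two-sided), the smallest possible, and 0.16 after Benjamini-Hochberg adjustment over the 8 sums. The sum of the immune subunits was 72.3, 86.8 and 87.5 FPKM under the control siRNA and 88.2, 109.2 and 99.8 FPKM after the knockdown, so the gap between the groups was narrow. Behind that sum stand opposite movements of PSMB8 and PSMB10. In the lower sums, too, the members did not all move alike. Of the base chaperones only PSMD5 was lower (means 39.1 and 24.2 FPKM), and among the ATPases PSMC3 was higher.

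Partner genes, listed by function outside the symbol rule, were 21 with a test, of which 4 were higher and 8 lower. Their median log2 difference was -0.11. The share called, 57.1%, was close to the 58.6% of all genes tested. With median-ratio scaling 3 were higher and 10 lower, and of all genes tested, too, fewer were higher and more lower. NFE2L1, the known activator of proteasome genes, was at 31.32, 30.97 and 31.24 FPKM under the control siRNA and 96.21, 95.88 and 99.77 FPKM after the knockdown. The groups were far apart, with a log2 difference of 1.61 (limma, adjusted p = 2.18e-07). PAAF1, which binds 19S ATPases during assembly, was higher, with a log2 difference of 0.47 (limma, adjusted p = 0.000734). AKIRIN2, which mediates the nuclear import of proteasomes, was higher, from 25.6 ± 1.74 to 31.4 ± 0.392 FPKM (SD, n = 3; log2 difference 0.29, limma, adjusted p = 0.00445).

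Lower among the partners was USP14, the deubiquitinase that rides on the 19S particle, from 29.2 ± 1.20 to 16.5 ± 1.36 FPKM (SD, n = 3; log2 difference -0.79, limma, adjusted p = 3.12e-05). The other such deubiquitinase, UCHL5, was lower, with a log2 difference of -0.36 (limma, adjusted p = 0.00491). NGLY1, the glycanase that processes the NFE2L1 protein, was lower, with a log2 difference of -0.74 (limma, adjusted p = 0.000204), and the protease of the same route, DDI2, had a log2 difference of -0.01 and did not pass. NFE2L2 was lower, with a log2 difference of -0.28 (limma, adjusted p = 0.00603) and POMP, the chaperone of beta ring assembly, with one of -0.32 (0.00118). The log2 differences of the remaining 12 partners lay between -0.30 and 0.22.

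**Figure D5:**
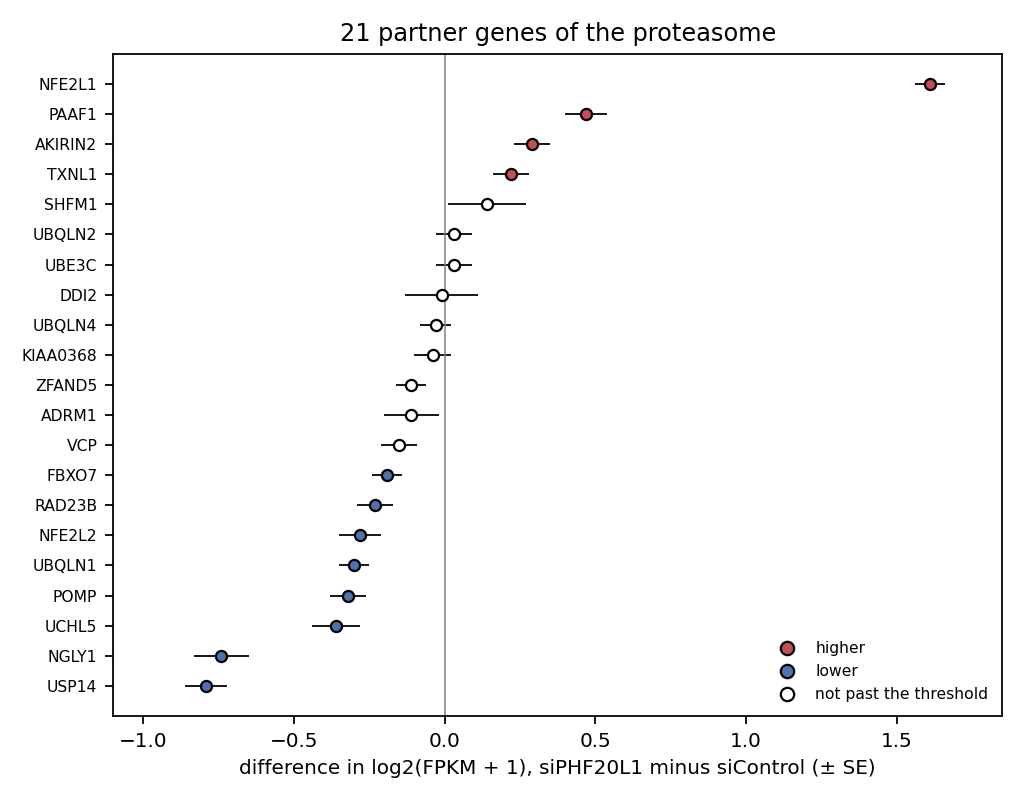
Difference in log2(FPKM + 1) between siPHF20L1 and siControl libraries (x axis, with its SE) for the 21 partner genes tested, ordered by size. Red points were higher and blue points lower at an adjusted p under 0.05 (limma, n = 3 libraries per group), and open points did not pass. NFE2L1 stands apart at 1.61, and NGLY1 and USP14 are lowest at -0.74 and -0.79.

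Of 5 genes for ubiquitin and its activating enzymes, none was higher, 3 were lower and 2 did not pass, so that 60.0% were called against 58.6% of all genes. By direction, 0.0% were higher against 34.0% of all genes, and 60.0% were lower against 24.7%. UBB, a polyubiquitin gene, was at 666.32, 950.66 and 945.91 FPKM under the control siRNA and 366.80, 479.61 and 451.84 FPKM after the knockdown. All of the latter were lower (log2 difference -0.97, SE 0.15, limma, adjusted p = 0.000684). RPS27A, a ubiquitin and ribosomal fusion gene, was lower, with a log2 difference of -0.75 and the activating enzyme gene UBA1, with one of -0.38 (limma, adjusted p = 1.41e-05 and 0.00317). Levels of UBB and RPS27A are uncertain, since these genes share the ubiquitin repeat.

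Of 18 genes of class I antigen processing and interferon signalling, 7 were higher, 5 were lower and 6 did not pass. Their median log2 difference was 0.03. The shares were 38.9% higher and 27.8% lower, near the 34.0% and 24.7% of all genes. With median-ratio scaling 5 were higher and 8 lower, and of all genes tested, too, fewer were higher and more lower. IRF1, a transcription factor known to bind the promoters of the immune subunits, was at 21.46, 20.45 and 20.42 FPKM under the control siRNA and 10.57, 11.36 and 10.83 FPKM after the knockdown. It was lower in all of the latter (log2 difference -0.87, SE 0.06, limma, adjusted p = 7.24e-06). NLRC5, the transactivator of class I genes, was higher by 0.42 on the log2 scale and HLA-E, a non-classical class I gene, by 0.58 (limma, adjusted p = 0.0023 and 5.18e-05). IFNGR2, a chain of the interferon gamma receptor, was higher, with a log2 difference of 0.41 (limma, adjusted p = 0.000945), while the peptidase gene ERAP1 was lower, with a log2 difference of -0.54 (0.000572).

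The kinase gene JAK2 was lower, with a log2 difference of -0.30 (limma, adjusted p = 0.0281), lost without siControl replicate 1 (0.0778) or siPHF20L1 replicate 2 (0.0619) or 3 (0.113), and with the libraries numbered 2 and 3 averaged (0.0815). The count of lower genes in this list was 8 with the replicate block, and 3 without siControl replicate 1, without siPHF20L1 replicate 2 or without siPHF20L1 replicate 3. HLA-B and HLA-C, classical class I genes, had log2 differences of 0.09 and 0.03 and did not pass, but HLA-B did with the replicate block (limma, adjusted p = 0.0237). B2M, their light chain, had a log2 difference of -0.22 (limma, adjusted p = 0.0984) and did not pass, but was lower with the block (0.000436). The levels of the HLA class I genes are uncertain, since the genes share near-identical sequence.

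Some members start close to a gene on the opposite strand. PSMB9 and TAP1, which encodes a subunit of the peptide transporter, start 488 bases apart, and both were higher (log2 differences 0.42 and 0.35, limma, adjusted p = 0.00197 and 0.0014). PSMC5 and FTSJ3 start 58 bases apart and PSMG2 and CEP76 265 bases apart, and in both pairs both genes were lower (-0.57 and -0.51, -0.29 and -0.36). Beside PSMA2, PSMD13 and PSME2, which passed, the neighbours MRPL32, SIRT3 and RNF31 did not (log2 differences -0.14, -0.06 and -0.04). Beside PSMD10 and PSME4, which did not pass, the neighbours ATG4A and ACYP2 were higher (0.44 and 0.69). Of all genes tested, 34.0% were higher and 24.7% lower, that is 58.6% called. Exons of 20 of the 48 members overlap a gene on the opposite strand, and 12 of these 20 were called. Exons of PSMC5, PSMG2, PSMA2, PSMD13, PSME2 and PSME4 overlap these neighbours, whether or not the pair moved together. Such values are uncertain where counting did not use strand.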

How the data were processed

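Transcripts of 6 poly-A libraries were measured, made with a stranded kit per the labels' protocols. The deposited values are FPKM per gene, per the file headers. Tools named in the submitters' processing notes, with no role, are HTSeq 0.6.0, TopHat2 2.1.1 and Bowtie 0.12.2, and the build is GRCh37. How FPKM were computed, and whether strand was used, is not given in the sources used here.

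Genes with FPKM of at least 1 in at least 3 libraries (11560) were tested with limma 3.58.1 (R 4.3.3) on log2(FPKM + 1), with an intensity trend, two-sided, with Benjamini-Hochberg adjustment over all of them. A log2 difference on this scale understates changes of low genes. Summed FPKM and ratios were tested by exact permutation over libraries (scipy 1.17.1). The fit was tested on simulated data.

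Members and lists were chosen with earlier results of these data known, and some genes of the lists are not reported here. Every member is accounted for. Values of every library are given for the immune subunits, their counterparts, and the highest and lowest log2 difference of each role group of at least 3 members, and from each other list the 3 largest rises and falls past the threshold are named. PSMF1, PSME2, PSMD14, TAP1 and the other genes beside members' starts, and the remaining list genes given with values, fall outside that rule and were chosen after their values were seen.

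Deviations from the group means of same-numbered libraries correlated across genes by 0.73, 0.44 and 0.42 for the numbers 1, 2 and 3, but siControl 3 with siPHF20L1 2 gave 0.49, so the check sets the number 1 apart and does not separate 2 from 3. Libraries 2 and 3 of a group had a mean chi-square per gene of 2.28 (siControl) and 2.01 (siPHF20L1) between them, against 12.17 to 15.45 for pairs with library 1, and were kept as separate samples. The block on the number was an alternative, beside pseudocount, filter, scaling and left-out libraries.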

Additional observations from a re-analysis of the deposited data

How the results depend on the processing

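Across 16 alternatives, 13 of the 24 members called were called in the same direction in every one, and none of the 24 reversed. Of the 23 members that did not pass, 10 passed in at least 1 alternative. The same counts over all genes tested are not given, so these describe the members alone. With the replicate number as a block, members higher were 10 (6 without it) and members lower 22 (18 without it), lower antigen and interferon genes were 8, and no called member or named list gene lost its call. The libraries numbered 2 and 3 alone gave 10 members higher and an ATPase median of -0.20, with PSMB7 at 0.00 and PSMD8 at -0.04. With these libraries averaged, 9 members, 5 partners and 2 antigen genes were lower, and PSMD4 was at 0.00. Fewer of all genes tested passed in either direction with that averaging, too. The cause was not tested, but averaging leaves fewer samples.

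Scaling moved small differences. Median-ratio scaling left 8 antigen genes lower, and moved the medians of the alpha ring to -0.25, the constitutive beta ring to -0.09, the ATPases to -0.30, the non-ATPase subunits to -0.07, the activators to -0.32 and the core chaperones to 0.05. It reversed PSMA1 (-0.05), PSMA4 (-0.06), PSMB4 (-0.04), PSMB6 (-0.05), PSMB7 (-0.06), PSMD2 (-0.06), PSMD4 (-0.07), PSMD8 (-0.07), PSME1 (-0.01) and the sums of the non-ATPase subunits (-0.05) and core chaperones (-0.06). Quantile normalization gave 0.07 for the median and -0.03 for the sum of the core chaperones, -0.02 for PSMA4 and 0.02 for PSMB1. Equal sums gave 0.01 for PSMB1. None of the reversed genes had passed the threshold. The median of all genes was 0.05, and -0.02, -0.01 and 0.07 with median-ratio, quantile and equal-sum scaling. Median-ratio scaling left fewer of all genes tested higher and more of them lower.

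Leaving out 1 library at a time gave 3 to 6 lower antigen genes. Medians ranged from -0.27 (without siControl replicate 1) to -0.07 (without siPHF20L1 replicate 1) for the alpha ring, from -0.23 to -0.20 for the ATPases and from 0.04 (without siControl replicate 1) to 0.15 for the core chaperones, whose sum ranged from 0.00 to 0.04. Log2 differences ranged from -0.06 to 0.12 for PSMA1, -0.01 to 0.03 for PSMA4, -0.03 to 0.00 for PSMB1, -0.04 to 0.09 for PSMB6, -0.01 to 0.03 for PSMB7, -0.08 to 0.01 for PSMD1, -0.01 to 0.06 for PSMD2, -0.04 to 0.08 for PSMD4 and -0.09 to 0.06 for PSMD8. The lowest value of a member tested was 7.82 FPKM, far above the worth of 1 fragment, and 3 libraries per group limit the exact tests.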
